A study of Saccharomyces cerevisiae with 10 samples.

Results

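The nuclear genes of the mitochondrial ribosome were followed through the evolution experiment by the accessibility of their chromatin. Of 60 listed genes, 36 for the large subunit and 24 for the small subunit, 35 had a peak, and these 35 peaks are part of 3515 in all. A peak was counted as a member when its nearest annotated promoter was that of a listed gene. Accessibility was measured with ATAC-seq, in which the Tn5 transposase cuts open DNA, and loose chromatin yields more reads than compact chromatin. All libraries came from the haploid W303 strain WP35, which is MATα and carries the pGAL1-YFP reporter at the ho locus. A population of this strain was sorted daily for low YFP for 7 days and then grown without sorting until Day28. Populations frozen on Day0, Day3, Day7, Day10, and Day28 were revived and grown in synthetic complete medium with 0.1% mannose, and were then moved to fresh medium with 0.1% mannose and 0.2% galactose. There were 2 libraries of each day, 10 in all, and they are called replicates 1 and 2. All came from 1 evolution replicate, L3, so the p-values measure the spread between these libraries and not between independently evolved populations.

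Mitochondria translate a few proteins of the respiratory chain on ribosomes of their own. In yeast nearly all proteins of these ribosomes are encoded in the nucleus, made in the cytosol, and imported. Some descend from the bacterial ribosome, and others are found only in mitochondria. Their genes are known for being transcribed together with respiration, apart from the genes of the cytosolic ribosome, which follow the growth rate.

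The counts in peaks were between 4748625 and 18693542 per library. Every member peak held at least 236 reads in each library, and whether depth limited the comparisons was not tested. Taken over all 3515 peaks, replicate libraries of a day differed by more than sampling alone allows. Chi-square divided by the number of peaks ran from 6.18 on Day7 to 25.8 on Day0. Reads came from 2 sequencing runs for both libraries of Day3, both of Day28, and replicate 2 of Day10, and from 1 run for the rest. Where Day3 or Day28 is compared to Day0 or Day7, the effect of the number of runs and that of the day cannot be told apart. The number of runs is the same on Day0 and Day7. On Day10 it differs between the replicates, and its effect cannot be told apart from theirs.

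Peaks were found for 21 of the 36 large subunit genes and 14 of the 24 small subunit genes. Of the 37 genes with a bacterial relative 22 had a peak, as did 13 of the 22 genes for mitochondrion-specific proteins. RSM22, a putative methyltransferase in place of a structural protein, had none. No gene had more than 1 peak. The share of listed genes with a peak was 58.3%, against 49.0% of 6002 coding genes.

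The other 25 genes were not followed by a peak of their own. For 19 of them the start lies in a merged peak that was assigned to a neighbouring gene. These are MRPL3, MRPL4, MRPL6, MRPL8, MRPL13, MRPL15, MRPL17, MRPL37, MRPL39, MRP20, MRPS17, MRPS35, RSM7, RSM10, RSM19, RSM24, RSM26, RSM28, and MRP4. The start of RSM19 lies in the peak of MRPS12, another member. The starts of MRPL22, MRPL24, MRPL32, MRPL40, MRPL50, and RSM22 lie in no merged peak, and that of MRPL40 is 75 bp from the nearest one.

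The member peaks were long and mostly shared with neighbours. Their median length was 1018 bp, with a range from 202 to 4425 bp, against 868 bp for all peaks. Of the 35 peaks, 20 (57.1%) also hold the start of another coding gene, compared to 37.6% of all peaks, and for these the signal cannot be assigned to 1 gene alone. HOMER placed 34 of them at a promoter, and 33 hold the start of their own gene. The exceptions for the own start are RSM23, whose peak lies upstream of it, and MRPS28, whose peak is centred 1209 bp past its start and was annotated to the transcription end site. Peaks were called on all 5 days for 32 members (91.4%, against 77.1% of all peaks). The MRPL25 peak was called on Day0 alone, that of RSM23 on Day7 and Day10, and that of MRP13 on 4 days.

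**Figure D1:**
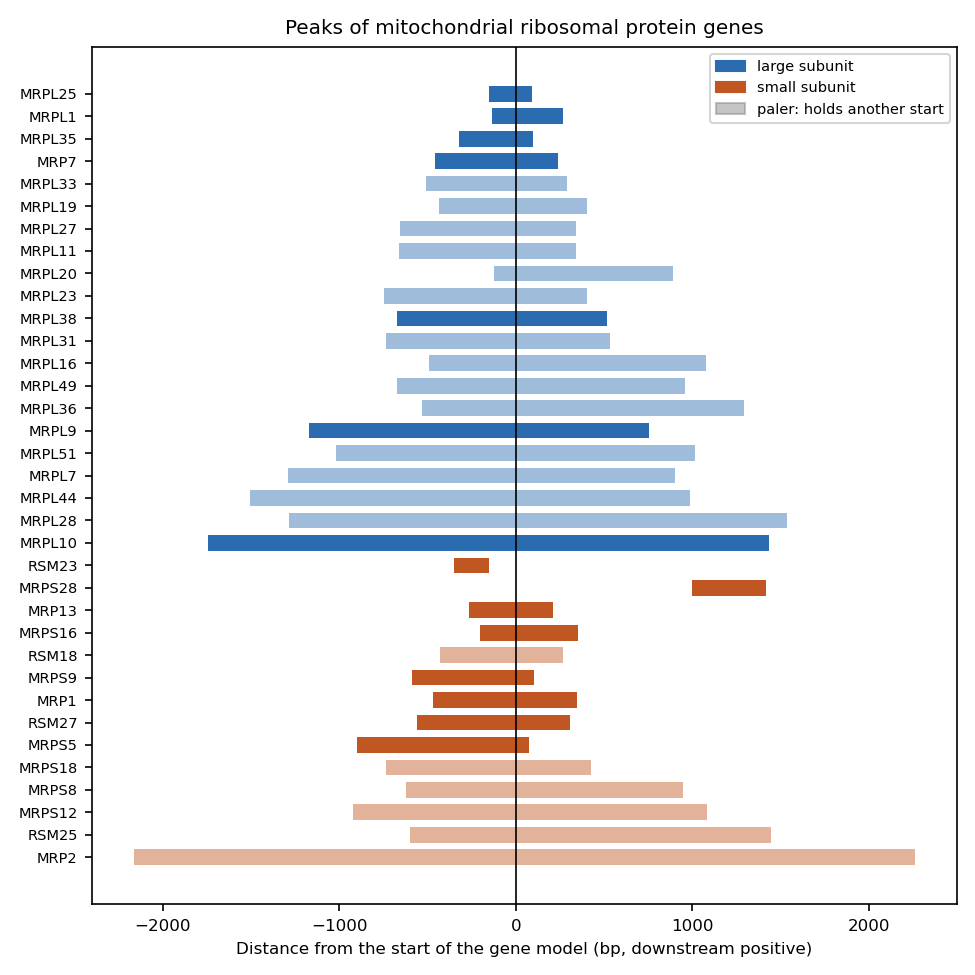
Extent of the 35 member peaks, in bp from the start of the gene model, with downstream positive. Blue bars are large subunit genes, orange bars are small subunit genes, and paler bars are the 20 peaks that hold another start. All peaks except those of RSM23 and MRPS28 span the line at 0.

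To show the DNA behind the peaks with the smallest p over the 5 days, among members whose peak holds their own start, promoter windows from 250 bases before to 50 bases after the start are given for 6 members, from the RefSeq R64 assembly. The window of MRPL51 is chrXVI:729541-729840 on the + strand, that of RSM25 is chrIX:188735-189034 on the - strand, and that of MRPL20 is chrXI:599632-599931 on the - strand. That of MRPL35 is chrIV:1110339-1110638 on the + strand, that of MRPS8 is chrXIII:571998-572297 on the + strand, and that of MRPS16 is chrXVI:529301-529600 on the - strand. The windows lie whole inside the peaks of MRPL51, RSM25, MRPL35, and MRPS8, while 176 of the 300 bases for MRPL20 and 255 for MRPS16 do. Each is written 5′ to 3′ in the direction of the gene, and capitals mark matches to 5 motifs on either strand.
MRPL51: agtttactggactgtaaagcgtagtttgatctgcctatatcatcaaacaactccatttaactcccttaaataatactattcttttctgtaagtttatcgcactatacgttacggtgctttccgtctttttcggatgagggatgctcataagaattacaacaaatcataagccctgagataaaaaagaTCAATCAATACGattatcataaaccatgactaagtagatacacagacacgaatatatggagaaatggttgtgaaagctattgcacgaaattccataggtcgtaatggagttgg
RSM25: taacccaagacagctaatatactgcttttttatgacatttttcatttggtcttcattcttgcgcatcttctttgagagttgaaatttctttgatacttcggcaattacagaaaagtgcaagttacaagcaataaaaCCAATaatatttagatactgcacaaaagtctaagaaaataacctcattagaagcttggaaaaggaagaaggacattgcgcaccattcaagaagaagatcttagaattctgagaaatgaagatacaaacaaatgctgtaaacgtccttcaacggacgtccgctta
MRPL20: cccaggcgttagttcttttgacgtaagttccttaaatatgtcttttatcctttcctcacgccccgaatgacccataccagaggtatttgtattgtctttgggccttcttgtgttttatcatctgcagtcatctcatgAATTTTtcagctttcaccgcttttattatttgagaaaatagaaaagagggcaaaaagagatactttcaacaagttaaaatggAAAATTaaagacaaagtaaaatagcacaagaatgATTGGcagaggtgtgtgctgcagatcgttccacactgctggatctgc
MRPL35: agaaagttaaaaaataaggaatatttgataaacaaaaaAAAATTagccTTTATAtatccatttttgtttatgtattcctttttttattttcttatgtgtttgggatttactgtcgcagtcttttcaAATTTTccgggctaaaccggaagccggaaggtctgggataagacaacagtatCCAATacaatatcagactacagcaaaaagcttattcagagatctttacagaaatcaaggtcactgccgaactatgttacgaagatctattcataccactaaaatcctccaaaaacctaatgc
MRPS8: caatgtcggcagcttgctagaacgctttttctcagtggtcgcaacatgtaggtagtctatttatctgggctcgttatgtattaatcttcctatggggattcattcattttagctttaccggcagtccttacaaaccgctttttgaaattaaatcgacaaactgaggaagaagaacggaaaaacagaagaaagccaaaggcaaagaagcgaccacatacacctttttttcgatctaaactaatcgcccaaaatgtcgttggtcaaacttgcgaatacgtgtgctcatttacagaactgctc
MRPS16: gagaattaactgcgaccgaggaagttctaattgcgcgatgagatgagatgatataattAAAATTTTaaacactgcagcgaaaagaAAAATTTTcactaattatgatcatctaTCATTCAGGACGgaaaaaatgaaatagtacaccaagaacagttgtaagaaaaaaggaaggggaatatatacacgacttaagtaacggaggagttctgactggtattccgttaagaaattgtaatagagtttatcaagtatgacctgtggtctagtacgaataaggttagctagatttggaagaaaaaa

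The motifs searched were known elements of yeast promoters. The first, AATTTT, is known from genes that rise with fast growth. The Hap complex, an activator of respiratory genes, binds CCAAT. Reb1 binds TTACCCG and Abf1 a site whose core is TCA and ACG with 6 bases between them, and both factors keep promoters free of nucleosomes. The last was TATAAA, a form of the TATA box. The Abf1 core is in the windows of 15 of the 60 member genes (25%), against 14.4% of 6001 coding genes. The windows printed for MRPL51 and MRPS16 hold it. TTACCCG is in 8 member windows (13.3%, against 7.08%), and in none of the 6 printed. AATTTT is in 23 (38.3%, against 51.7%), with 2 matches each in MRPL20 and MRPL35 and 4 in MRPS16, where a forward and a reverse match overlap at 2 places. CCAAT is in 25 (41.7%, against 43.3%) and TATAAA in 21 (35%, against 45.2%). TATAAA is in 17 of 36 large subunit windows (47.2%) and 4 of 24 small subunit windows (16.7%). The MRPS8 window has no match to any of the 5. A match says only that these letters are there.

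Normalized counts are the reads of a peak divided by 1 size factor per library, as the authors deposited them. Over the 10 libraries the mean normalized count of a member peak had a median of 2158, from 514 for MRPL25 to 7070 for MRP2, against 1914 for all peaks. Per kb of peak the median was 1833, against 2206 for all peaks. The highest normalized counts per kb were 4957 for RSM23 (YGL129C), the yeast relative of human DAP3, and 3138 for MRPS12 (YNR036C), whose bacterial relative sits in the decoding centre. The lowest were 1344 for MRPL31 (YKL138C) and 1360 for RSM25, both mitochondrion-specific proteins. The RSM23 peak is 202 bp long, the shortest of the members.

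The members together took a smaller share of the counts in peaks on Day3 and Day7 than on the other days. The share was 0.807% and 0.748% in the 2 Day0 libraries, and 0.654% and 0.632% in those of Day3. It was 0.637% and 0.672% on Day7, 0.808% and 0.846% on Day10, and 0.751% and 0.747% on Day28. The libraries of Day3 and Day7 do not overlap with those of the other 3 days. This share moves with whatever the most abundant peaks take. In these bulk libraries a site open in fewer cells and a site open less of the time in each cell cannot be told apart.

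**Figure D2:**
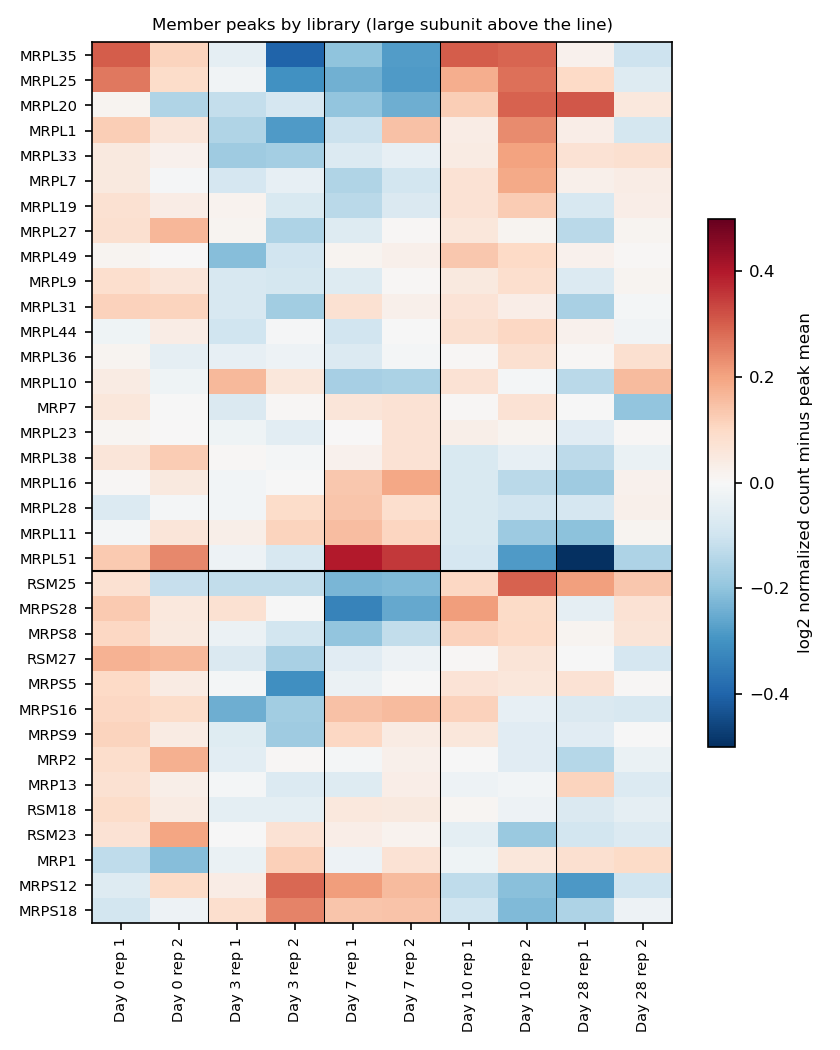
Log2 normalized count of each member peak minus its mean over the 10 libraries, by library, with large subunit genes above the line and small subunit genes below. Genes are ordered within a subunit by Day3 and Day7 against Day0 and Day10. Most peaks stay within a narrow range, and MRPL51 and MRPL35 show the strongest colours.

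Over the 5 days the members had a smaller range than all peaks did. The log2 ratio of the highest to the lowest day mean had a median of 0.26 over the members, against 0.39 over all peaks. It was lowest for MRPL23 (0.08) and highest for MRPL51 (0.69). Of the 35 member peaks, 18 (51.4%) differed between days at an adjusted p under 0.05 in edgeR's quasi-likelihood F test, compared to 71.2% of all peaks. The count fell without either Day7 library, and the share of all peaks called in those fits is not given. After loess adjustment for peak abundance 19 members were called, against 61.7% of all peaks, and these were partly other members. MRPS28, MRPS18, MRPL33, MRPS12, MRPL25, MRPL16, MRPL19, and MRP1 were then no longer called. MRP2, MRPL10, MRPL44, MRPL28, RSM23, MRPL9, MRPL36, MRPL1, and MRPS9 were called only after loess.

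The mean was highest on Day0 for 11 members (31.4%, against 12.2% of all peaks), on Day3 for 2 (5.71%, against 17.6%), on Day7 for 8 (22.9%, against 28.6%), on Day10 for 13 (37.1%, against 25.6%), and on Day28 for 1 (2.86%, against 16.0%). It was lowest on Day3 for 13 members (37.1%, against 18.0%), on Day7 for 10 (28.6%, against 30.6%), on Day28 for 6 (17.1%, against 12.3%), on Day10 for 5 (14.3%, against 30.7%), and on Day0 for 1, MRP1 (2.86%, against 8.42%).

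MRPL51 (YPR100W), a mitochondrion-specific protein of the large subunit, had the smallest p over the 5 days (edgeR adjusted p = 0.000557). Its normalized counts were 4451 and 4802 on Day0, 3992 and 3843 on Day3, 5351 and 5188 on Day7, 3832 and 3338 on Day10, and 2876 and 3645 on Day28. Both Day7 libraries were the highest of the 10, and the Day10 and Day28 libraries were below those of Day0. This peak, chrXVI:728773-730804, also holds the starts of SNT309, TMH18, and YPR099C.

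RSM25, MRPL20, MRPL35, MRPS8, and MRPS28 shared a minimum on Day7 and a maximum on Day10. RSM25 (YIL093C), a mitochondrion-specific protein of the small subunit, had normalized counts of 2906 and 2546 on Day0, 2533 and 2535 on Day3, 2355 and 2371 on Day7, 2966 and 3383 on Day10, and 3183 and 3028 on Day28 (adjusted p = 0.000968, edgeR). Its 2 libraries of Day7 were the lowest, and all 4 of Day10 and Day28 were above the other 6. Its peak, chrIX:187338-189382, also holds the starts of LYS12 and YIL092W.

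MRPL20 (YKR085C), a mitochondrion-specific protein of the large subunit, had 1548 and 1381 on Day0, 1412 and 1444 on Day3, 1337 and 1294 on Day7, 1669 and 1883 on Day10, and 1900 and 1590 on Day28 (adjusted p = 0.00264, edgeR). The 4 libraries of Day10 and Day28 were again above the other 6. The peak, chrXI:598790-599807, also holds the start of HBS1, a ribosome rescue factor of the cytosol.

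MRPL35 (YDR322W), another mitochondrion-specific protein of the large subunit, had 942 and 823 on Day0, 739 and 578 on Day3, 663 and 629 on Day7, 941 and 934 on Day10, and 775 and 711 on Day28 (adjusted p = 0.0034, edgeR). The libraries of Day3 and Day7 were all below those of Day0 and Day10. No other start lies in its peak, chrIV:1110265-1110686.

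MRPS8 (YMR158W), a small subunit protein with a bacterial relative, had 2616 and 2520 on Day0, 2385 and 2285 on Day3, 2126 and 2240 on Day7, 2639 and 2608 on Day10, and 2458 and 2548 on Day28 (adjusted p = 0.00397, edgeR). The Day7 libraries were the lowest. The peak, chrXIII:571626-573197, also holds the start of AIM36. MRPS28 (YDR337W), a small subunit protein with a bacterial relative, had 885 and 840 on Day0, 852 and 809 on Day3, 642 and 679 on Day7, 935 and 864 on Day10, and 785 and 851 on Day28 (adjusted p = 0.00773, edgeR, and 0.0864 after loess). This is the peak at chrIV:1147319-1147737, past the end of the gene.

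MRPS16 and RSM27 had their minimum on Day3 instead. MRPS16 (YPL013C), a small subunit protein with a bacterial relative, had 1342 and 1333 on Day0, 1055 and 1110 on Day3, 1385 and 1394 on Day7, 1354 and 1216 on Day10, and 1189 and 1182 on Day28 (adjusted p = 0.00617, edgeR), in chrXVI:528995-529555. RSM27 (YGR215W), a mitochondrion-specific protein of the small subunit, had 1809 and 1795 on Day0, 1526 and 1435 on Day3, 1545 and 1575 on Day7, 1611 and 1677 on Day10, and 1604 and 1515 on Day28 (adjusted p = 0.00975, edgeR), in chrVII:921613-922484. Both Day0 libraries of RSM27 were above the other 8. Neither peak holds another start.

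**Figure D3:**
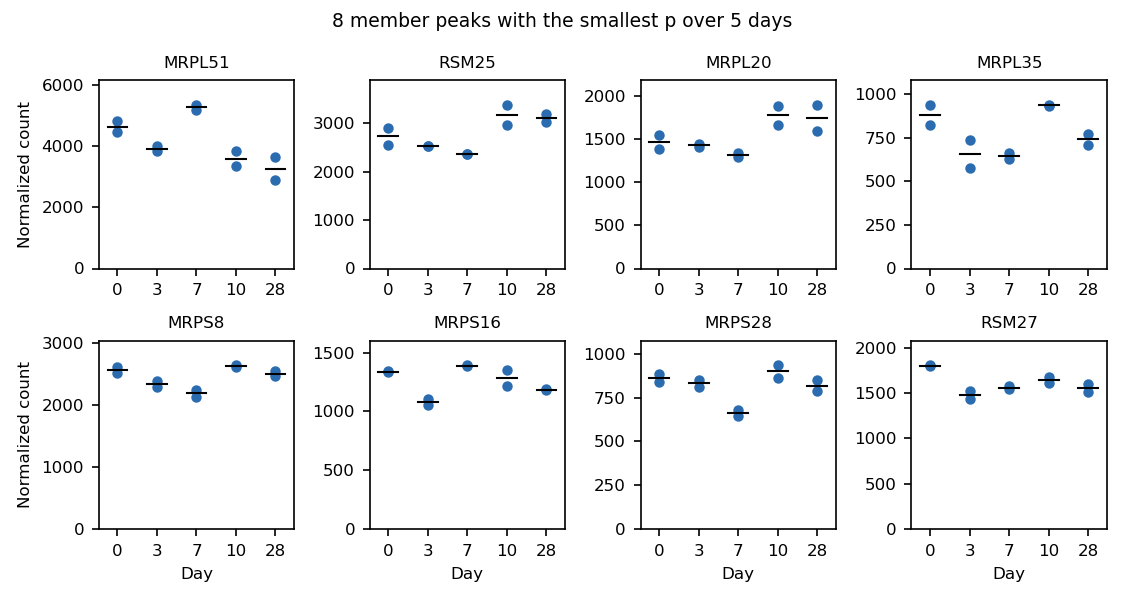
Normalized counts of the 8 member peaks with the smallest p over 5 days, by day. Points are libraries, 2 per day, and bars are their means, on axes that start at 0. MRPL51 peaks on Day7, 5 of the others are lowest on Day7, and MRPS16 and RSM27 are lowest on Day3.

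Pairs of days were then compared with edgeR's quasi-likelihood test on the raw counts of the 4 libraries concerned, and a peak was called at a Benjamini-Hochberg adjusted p under 0.05 over all 3515 peaks. Consecutive pairs share the libraries of a day. Of the 35 members, 12 were called in no consecutive pair, 15 in 1, 7 in 2, and 1, MRPL51, in 3. The 12 are MRP1, MRP13, MRP2, MRP7, MRPL1, MRPL23, MRPL28, MRPL36, MRPL38, MRPL9, RSM18, and RSM23. After loess several of them were called in Day10 vs Day7, as were 59.9% of all peaks. MRP2, MRPL28, MRPL36, and MRPL9 were then higher, and RSM23, RSM18, MRP13, and MRPL1 lower. MRP2 was also lower in Day3 vs Day0 after loess (-0.42, adjusted p = 0.00344, edgeR). MRPL1 was also higher in Day7 vs Day3 after loess (0.28, adjusted p = 0.0263, edgeR).

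**Figure D4:**
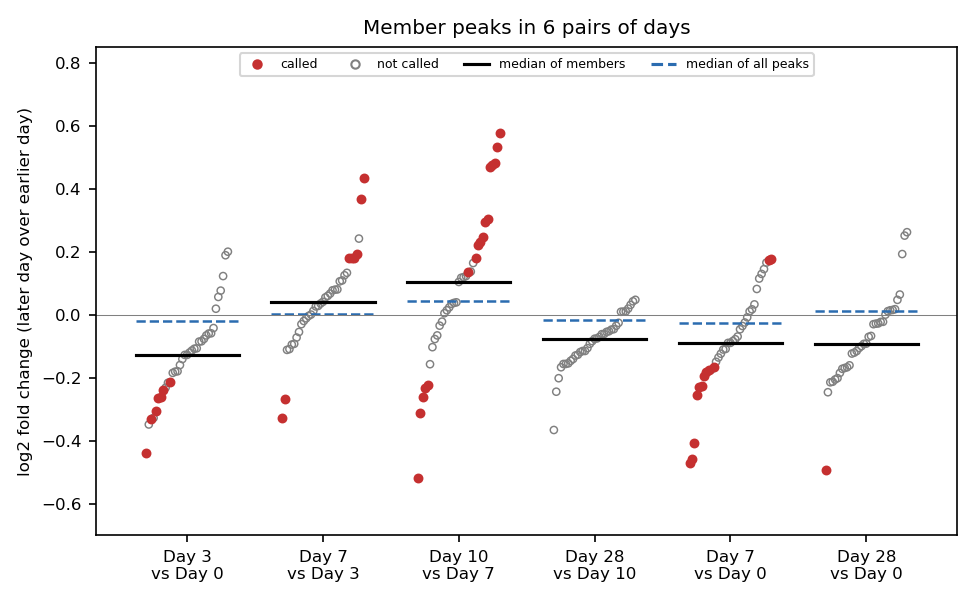
Log2 fold change of each of the 35 member peaks, later day over earlier day, in 6 pairs of days. Filled red points were called by edgeR and open points were not, and lines are the medians of the members (solid) and of all peaks (dashed). Every called member is lower in Day3 vs Day0, calls go both ways in Day10 vs Day7, and there is none in Day28 vs Day10.

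During the first 3 days of selection the members were called about as often as all peaks were. In Day3 vs Day0, 7 of 35 members (20%) fell and none rose. Of all 3515 peaks, 18.6% were called, with 9.59% of the 3515 higher and 8.99% lower. The median log2 fold change was -0.13 over the members and -0.02 over all peaks. Below 0 were 29 of 35 members and 1888 of all 3515 peaks. When the libraries were scaled by their total counts in place of TMM, the median of all peaks moved to -0.21 and that of the members to -0.32, and 22 members were called, all lower (30.2% of all peaks). Fewer than the 7 were called without Day0 replicate 1, without Day0 replicate 2, and without Day3 replicate 2. The share of all peaks called in those fits is not given. DESeq2 called 6 members as lower and 2 as higher (25.3% of all peaks). After loess 3 members were called (11.5% of all peaks), and 2 of these were among the 7.

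The largest falls were those of MRPL35 and MRPS16. The MRPL35 peak went from 883 ± 83.7 to 659 ± 114 (SD, n = 2), which is a log2 fold change of -0.44 (SE 0.13, edgeR adjusted p = 0.00842, and 0.136 after loess). The MRPS16 peak went from 1338 ± 6.5 to 1082 ± 38.4 (SD, n = 2), which is a log2 fold change of -0.33 (SE 0.10, edgeR adjusted p = 0.00699, and 0.105 after loess). The other 5 were RSM27, MRPL51, MRPL31, MRPS5, and MRPL27, with log2 fold changes from -0.31 to -0.21. MRPL27 and MRPL31 belong to the large subunit and MRPS5 is a small subunit protein with a bacterial relative. RSM27 and MRPL51 were also called after loess (adjusted p = 0.0404 and 0.00924, edgeR). The RSM27 call was lost without Day3 replicate 2, and the MRPL51 call without Day0 replicate 2 or either Day3 library, with DESeq2's size factors, and in the fit of all 10 libraries. Without Day3 replicate 2, the library with the lowest counts for MRPL35, its log2 fold change was -0.28 and no longer called, as was the -0.35 without Day0 replicate 1. MRPS16 kept its call only without Day0 replicate 2.

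Between Day3 and Day7, while selection went on, 6 members rose and 2 fell. In Day7 vs Day3, 32.1% of all 3515 peaks were called (14.7% higher and 17.4% lower), and 22.9% of the members were. DESeq2 called 2 members higher and 2 lower (21.8% of all peaks), as did edgeR with total counts (25.2%). The median log2 fold change was 0.04 over the members and 0.0024 over all peaks. MRPL51 rose by 0.43 (SE 0.06, edgeR adjusted p = 2.49e-08), from 3917 ± 105 to 5269 ± 115 (SD, n = 2). MRPS16 rose by 0.37 (SE 0.08, edgeR adjusted p = 6.61e-05), back to 1389 ± 6.12, and both calls stood without any 1 library and after loess. MRPL16, MRPL31, MRPL49, and MRPS9 rose by 0.18 to 0.19. MRPL31 was among those that DESeq2 did not call.

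MRPS28 fell by 0.33 in Day7 vs Day3 (SE 0.10, edgeR adjusted p = 0.00859), from 830 ± 30.6 to 660 ± 25.6 (SD, n = 2). MRPL10 (YNL284C), a large subunit protein with a bacterial relative, fell by 0.27 (SE 0.06, edgeR adjusted p = 0.000509), from 5400 ± 282 to 4472 ± 19.5 (SD, n = 2). Both calls were lost without either Day7 library. Fewer members were called without either Day7 library, when the lone library was assumed to vary like the others. The share of all peaks called in those fits is not given. After loess 9 members were called (36.0% of all peaks), with the 8 above among them.

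After sorting ended, Day10 vs Day7 gave the most calls of the 6 pairs of days. There were 17 of 35 members (48.6%) called, 12 higher and 5 lower, against 70.2% of all peaks, 37.4% higher and 32.8% lower. The median log2 fold change was 0.10 over the members and 0.04 over all peaks. Scaling by total counts moved the median of all peaks to 0.36 and that of the members to 0.42, and 29 members were then higher and 1 lower (85.7%, against 82.0% of all peaks). DESeq2 called 7 members higher and 6 lower (37.1%, against 62.0%). Fewer than the 17 were called without either Day7 library, and the share of all peaks called in those fits is not given. After loess 20 members were called, 11 higher and 9 lower (57.1%, against 59.9% of all peaks). Of these, 10 were among the 17 and in the same direction, and the member median was 0.02.

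The 2 largest rises were in low peaks. MRPL35 rose by 0.58 (SE 0.10, edgeR adjusted p = 9.39e-05), from 646 ± 24.4 to 938 ± 5.42 (SD, n = 2). MRPL25 (YGR076C), a mitochondrion-specific protein of the large subunit, rose by 0.53 (SE 0.14, edgeR adjusted p = 0.00281), with normalized counts of 431 and 418 on Day7 and 577 and 615 on Day10. Low peaks rose in general, since the 100 other peaks nearest in abundance had a median of 0.40 for MRPL35 and 0.58 for MRPL25. After loess the values were 0.18 (adjusted p = 0.0642, edgeR) and -0.12 (adjusted p = 0.246, edgeR), so that the direction of MRPL25 turned. The call of MRPL25 was also lost without either Day7 library.

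Other rises were larger than those of peaks of like abundance. RSM25 rose by 0.47 (SE 0.07, edgeR adjusted p = 3.37e-05), and the median of its 100 nearest peaks was -0.06. MRPL20 rose by 0.48 (SE 0.07, adjusted p = 3.39e-05, edgeR) against 0.15, and MRPS8 by 0.30 (SE 0.06, adjusted p = 0.000325, edgeR) against 0.01. These 3 calls stood after loess and without any 1 library. The other 6 rises were those of MRPL7, MRPL19, MRPL10, MRPL33, MRPL44, and MRPL49, all of the large subunit, with log2 fold changes from 0.13 to 0.29. After loess MRPL19 and MRPL33 were not called. MRPS28 rose by 0.48 (SE 0.10, adjusted p = 0.000553, edgeR), but its nearest peaks had a median of 0.41, and after loess it was not called (0.08, adjusted p = 0.431).

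MRPL51 fell by 0.52 in Day10 vs Day7 (SE 0.08, edgeR adjusted p = 4.26e-05), from 5269 ± 115 to 3585 ± 349 (SD, n = 2), and after loess by 0.27 (adjusted p = 0.00278, edgeR). MRPS12 fell by 0.31 (SE 0.08, edgeR adjusted p = 0.00371), from 7233 and 6989 to 5729 and 5415. Its nearest peaks had a median of -0.38, and its direction turned after loess (0.09) and with total counts (0.0048). Its call was lost without either Day7 library. MRPL16, MRPL11, and MRPS18 fell by 0.22 to 0.26. Of these, MRPS18 was not called after loess and turned with total counts (0.06).

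From Day10 to Day28, during growth without selection, no member was called. None of the 3515 peaks was called in Day28 vs Day10 by edgeR (0%), and DESeq2 called 0.171% of peaks and 0 members. At an unadjusted p under 0.05 there were 1 member, MRPL35, and 195 of all peaks (5.55%). The median log2 fold change was -0.08 over the members and -0.02 over all peaks. Below 0 were 28 of 35 members and 1949 of all 3515 peaks. The values lay between -0.37 for MRPL35 (SE 0.13, edgeR adjusted p = 0.812) and 0.05 for MRPS18.

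Against Day0, the end of selection showed more calls than Day3 did. In Day7 vs Day0, 2 members rose and 10 fell (34.3%), and 45.1% of all peaks were called, 20.5% higher and 24.6% lower. Both comparisons use the Day0 libraries. The median was -0.09 over the members and -0.03 over all peaks, or -0.30 and -0.24 with total counts, where 24 members were lower and none higher (59.4% of all peaks). DESeq2 called 4 members higher and 9 lower (49.5% of all peaks). Fewer than these 12 were called without either Day7 library, and more without Day0 replicate 2. The share of all peaks called in those fits is not given. After loess 8 members were called (35.7% of all peaks), 7 of them among the 12.

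MRPL35 fell by 0.47 in Day7 vs Day0 (SE 0.10, edgeR adjusted p = 0.00337, and 0.0354 after loess). MRPL25 fell by 0.46 (SE 0.12, edgeR adjusted p = 0.0104, and 0.421 after loess), from 610 and 542 on Day0. MRPS28, MRPS8, RSM27, RSM25, MRPL10, MRPL19, MRPL27, and MRPL7 fell by 0.17 to 0.41. MRPS18 (YNL306W), a small subunit protein with a bacterial relative, rose by 0.18 (SE 0.06, edgeR adjusted p = 0.0219, and 0.0953 after loess), and turned to -0.03 with total counts. MRP1 (YDR347W), a mitochondrion-specific protein of the small subunit, rose by 0.17 (SE 0.06, edgeR adjusted p = 0.0241, and 0.0256 after loess), and turned to -0.04 with total counts. The MRP1 peak had normalized counts of 2077 and 1954 on Day0, and between 2214 and 2460 in the 8 other libraries, so that Day0 stood below all later days. Its log2 fold change in Day28 vs Day0 was 0.26 (SE 0.09) and was not called (edgeR adjusted p = 0.0659).

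At the end of the experiment 1 member differed from Day0. In Day28 vs Day0, 8.82% of all peaks were called, 4.52% higher and 4.30% lower, and of the members only MRPL51 was (1 of 35, 2.86%). It fell by 0.49 (SE 0.11, edgeR adjusted p = 0.0118), from 4627 ± 248 to 3261 ± 544 (SD, n = 2). After loess it fell by 0.45 and was again the only member called (10.8% of all peaks). The call was lost without Day0 replicate 2 and without Day28 replicate 1, when its log2 fold change was -0.46 and -0.34. More members were called without Day28 replicate 2, and the share of all peaks called in that fit is not given. The median log2 fold change was -0.09 over the members and 0.01 over all peaks. Below 0 were 26 of 35 members and 1696 of all 3515 peaks.

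Whether the libraries of 2 days overlapped was also counted. Between Day3 and Day0 the normalized counts did not overlap for 27 members, 24 of them lower on Day3, while 64.6% of all peaks did not overlap. For Day7 vs Day3 there were 20, 14 of them higher, against 64.6% of all peaks. For Day10 vs Day7 there were 27, 17 of them higher, against 88.4%. For Day28 vs Day10 there were 18, 17 of them lower, against 36.0%. For Day7 vs Day0 there were 27, 17 of them lower, against 78.6%, and for Day28 vs Day0 there were 19, 15 of them lower, against 55.0%. These shares of all peaks take both directions together, and the direction among all peaks was not counted.

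Fold changes followed peak abundance in several pairs of days, so each member was set beside the 100 other peaks nearest to it in mean log2 normalized count. In Day3 vs Day0 the member minus the median of these peaks had a median of -0.12, and 6 of 35 members were above. In Day7 vs Day3 it was 0.04 with 22 above, and in Day10 vs Day7 it was 0.04 with 21 above. It was -0.07 in Day28 vs Day10 with 6 above, -0.06 in Day7 vs Day0 with 14 above, and -0.11 in Day28 vs Day0 with 10 above. Both values of 0.04 are below 0.05, the replicate SD of the members' median log2 normalized count. That SD is of a level within a library and does not measure the spread of these differences. The members lie mostly at middle abundance, with 4, 6, 12, 9, and 4 of them in 5 equal groups of all peaks by abundance, from lowest to highest. In Day10 vs Day7 the 4 members of the lowest group had a median of 0.51, as the other peaks there did (0.50), while the 4 of the highest group had -0.08 and the other peaks -0.54.

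**Figure D5:**
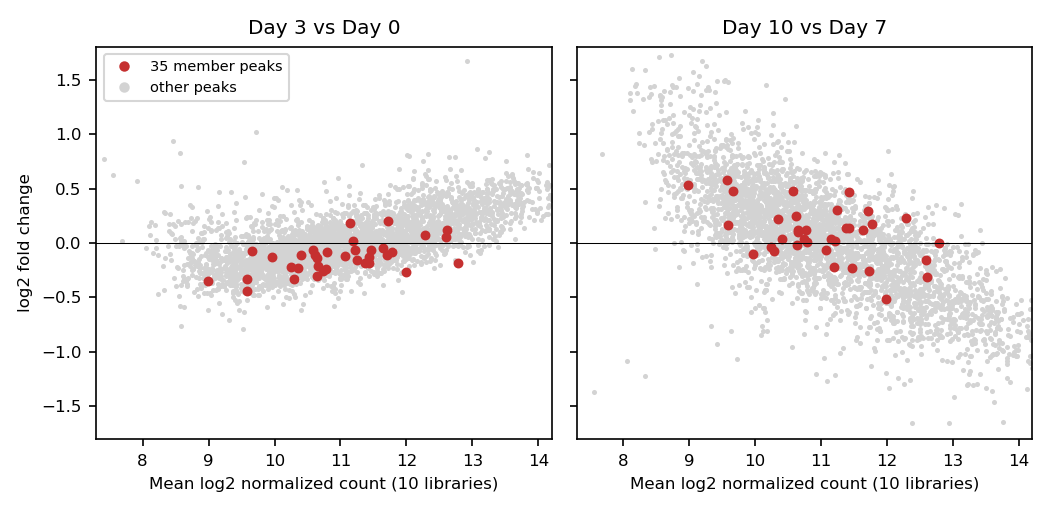
Log2 fold change against mean log2 normalized count over the 10 libraries, in Day3 vs Day0 and Day10 vs Day7. Red points are the 35 member peaks and grey points the other peaks, of which 28 in the left panel and 32 in the right panel lie outside the axes. Grey points rise with abundance in the left panel and fall with it in the right one, and the red points follow a flatter course in the right one.

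The subunits were set side by side. In Day3 vs Day0 the median log2 fold change was -0.11 over the 21 large subunit peaks and -0.13 over the 14 small subunit peaks. Of these, 4 (19.0%) and 3 (21.4%) were called, against 18.6% of all peaks. In Day10 vs Day7 the median was 0.13 over the large subunit peaks, of which 9 rose and 3 fell (57.1% called). It was 0.02 over the small subunit peaks, of which 3 rose and 2 fell (35.7% called). Of all peaks 70.2% were called. In Day7 vs Day0 the medians were -0.08 and -0.10, with 6 called in each (28.6% and 42.9%, against 45.1% of all peaks). A difference between the subunits was not tested. Of the members with no other start in the peak, 15 in all, 4 fell in Day3 vs Day0 with a median of -0.18, and of the 20 others 3 fell with a median of -0.11.

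Other genes of mitochondrial gene expression were looked up from a list of 52, of which 28 had 29 peaks. In Day3 vs Day0, 7 of the 29 fell and none rose (24.1%, against 18.6% of all peaks, median -0.17), and after loess 2 fell. In Day7 vs Day3, 1 rose and 2 fell (10.3%, against 32.1%, median 0.02), or 3 each after loess. In Day10 vs Day7, 15 rose and 2 fell (58.6%, against 70.2%, median 0.22), or 13 and 7 after loess. In Day28 vs Day10 none was called (median -0.10). In Day7 vs Day0, 1 rose and 12 fell (44.8%, against 45.1%, median -0.20), or 2 and 8 after loess, and in Day28 vs Day0, 1 fell (3.45%, against 8.82%, median 0.06). The list holds other mitochondrial ribosomal proteins, translation factors, translational activators, assembly factors, and aminoacyl-tRNA synthetases. By role, the calls of Day10 vs Day7 were 5 rises among 7 synthetase peaks, 3 among 5 peaks of translation factors, 3 among 5 of translational activators, 2 among 3 of assembly factors, and 2 rises and 2 falls among 9 of other ribosomal proteins. After loess 4 synthetase peaks rose and none fell, and 59.9% of all peaks were called. Translation factors and translational activators then had 1 rise and 1 fall each. Assembly factors had 2 rises and 1 fall, and other ribosomal proteins 5 rises and 4 falls.

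RRF1, the mitochondrial ribosome recycling factor, fell from 918 and 845 on Day0 to 654 and 582 on Day3, a log2 fold change of -0.53 (SE 0.13, edgeR adjusted p = 0.00139). On Day7 it had 565 and 609 (log2 fold change from Day0 -0.61, SE 0.10, adjusted p = 0.000698, edgeR), and both calls stood after loess. The Day3 call was lost without Day0 replicate 1 and without Day3 replicate 2. MSE1, the mitochondrial glutamyl-tRNA synthetase, rose from 750 and 776 on Day7 to 1196 and 1427 on Day10, a log2 fold change of 0.83 (SE 0.09, edgeR adjusted p = 4.68e-06). EHD3, which has been found in the small subunit, fell by 0.46 in the same comparison (SE 0.08, edgeR adjusted p = 0.00019). After loess the rise of MSE1 was 0.56 (adjusted p = 0.000227, edgeR) and EHD3 changed by -0.17 (adjusted p = 0.0283, edgeR).

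In Day7 vs Day3 the ribosomal protein gene RTC6 rose by 0.33 (SE 0.06, edgeR adjusted p = 1.29e-05) and RML2, also of the large subunit, fell by 0.39 (SE 0.06, edgeR adjusted p = 1.82e-07). MEF2, a translation elongation factor relative, rose by 0.16 in Day7 vs Day0 (SE 0.06, edgeR adjusted p = 0.0412), and turned to -0.05 with total counts. Its call was lost without either Day7 library, without Day0 replicate 2, in the fit of all 10 libraries, and without the peaks of lowest abundance. SWS2, a small subunit protein, was the one called in Day28 vs Day0, with 1464 and 1553 on Day0 and 983 and 1129 on Day28, a log2 fold change of -0.50 (SE 0.11, edgeR adjusted p = 0.0104). Its libraries of the 2 days do not overlap, and the call was lost without Day0 replicate 2.

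The 74 peaks of cytosolic ribosomal protein genes gave other values in the same fits. In Day3 vs Day0, 33 of them rose and 3 fell (48.6%, against 18.6% of all peaks, median 0.23), or 21 and 13 with total counts (median 0.04). In Day7 vs Day3, 9 rose and 6 fell (20.3%, against 32.1%, median 0.02), or 2 and 6 with total counts (median -0.0034). In Day10 vs Day7, 7 rose and 59 fell (89.2%, against 70.2%, median -0.46), or 17 and 37 with total counts (median -0.14). None was called in Day28 vs Day10 (median 0.13). In Day7 vs Day0, 42 rose and 5 fell (63.5%, against 45.1%, median 0.25), or 25 and 17 with total counts (median 0.04). In Day28 vs Day0, 1 rose and 2 fell (4.05%, against 8.82%, median -0.01). After loess, 22 rose and 2 fell in Day3 vs Day0 (median 0.15, 11.5% of all peaks called). In Day7 vs Day3, 7 rose and 7 fell after loess (36.0% of all peaks). In Day10 vs Day7, 7 rose and 51 fell after loess (median -0.23, 59.9% of all peaks). In Day7 vs Day0, 31 rose and 7 fell after loess (median 0.12, 35.7% of all peaks). The difference between the 2 kinds of ribosomal protein genes was not tested.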

How the data were processed

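ATAC-seq libraries of 5 days were used, 2 per day. The authors trimmed reads with Trim Galore 0.5.0, mapped them with Bowtie2 2.2.9 to R64, called peaks with MACS2 2.1.1, merged overlapping peaks with BEDTools 2.30.0, and counted reads per peak with featureCounts 1.6.3. The deposited tables hold raw counts and normalized counts, a signal equal to the counts divided by 1 size factor per library. The deposited annotation came from HOMER. A peak name cut short in the count tables was matched by its unique beginning. Peak positions and gene starts are both on R64, from RefSeq for the genes.

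Raw counts were tested with edgeR 4.0.16 in R 4.3.3 (TMM, filterByExpr, which removed no peak, quasi-likelihood test, Benjamini-Hochberg adjustment at 0.05), with the 4 libraries of each pair of days, or all 10 for the 5-day test. The procedure was tested on simulated data. The SE printed with a log2 fold change is its absolute value divided by the square root of edgeR's F statistic. Loess offsets on abundance used a span of 0.3. Alternatives were DESeq2 1.42.0, other size factors, 1 fit of all libraries, a filter on low peaks, stricter thresholds, other choices of members, each library left out, and a replicate block. Tables and figures were made in Python 3.11.15.

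Named members are the 8 with the smallest p over 5 days, the 2 largest called rises and falls of each pair of days, and the 2 highest and lowest per kb. For the list of other mitochondrial genes it was the largest called rise and fall. The remaining called members are named with their range. The members and lists were chosen with earlier results of these data known.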

Additional observations from a re-analysis of the deposited data

How the results depend on the processing

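Of 103 counts of called members under other settings, 60 stayed within 1.5 times the reported count. These include Day28 vs Day10, where the reported count was 0 and stricter thresholds or fewer members could give only 0. Of 73 member medians of log2 fold change, 64 moved by less than 0.05. This is the replicate SD of the members' median log2 normalized count, and not of a fold change. Fitting all 10 libraries at once gave 4 members in Day3 vs Day0, 3 in Day7 vs Day3, 6 in Day7 vs Day0, and 2 in Day28 vs Day0. The share of all peaks called in that fit is not given. Total counts gave 22, 4, 30, and 24 called in Day3 vs Day0, Day7 vs Day3, Day10 vs Day7, and Day7 vs Day0, and 31 over 5 days, with medians of -0.32 in Day3 vs Day0, 0.42 in Day10 vs Day7, -0.15 in Day28 vs Day10, and -0.30 in Day7 vs Day0. Loess gave 3 in Day3 vs Day0 and a median of 0.024 in Day10 vs Day7. DESeq2 gave 4 in Day7 vs Day3. Without the lowest 25% of peaks 5 were called in Day7 vs Day3, and the medians were -0.14 in Day7 vs Day0 and -0.029 in Day28 vs Day0. An adjusted p under 0.01 left 3, 4, 4, and 0 in Day3 vs Day0, Day7 vs Day3, Day7 vs Day0, and Day28 vs Day0, and 9 over 5 days. A log2 fold change of at least 0.5 left 3 in Day10 vs Day7 and 0 in the other pairs.

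The 15 members with no other start gave 4, 4, 4, 6, and 0 called in Day3 vs Day0, Day7 vs Day3, Day10 vs Day7, Day7 vs Day0, and Day28 vs Day0, 6 over 5 days, and a median of -0.18 in Day3 vs Day0; fewer peaks are in that count. The 51 peaks that hold the start of any listed gene were chosen after seeing the data. They gave 28 called in Day10 vs Day7 (54.9%, against 70.2% of all peaks). Of these, 14 were higher and 14 lower, where the 35 members gave 12 and 5. The medians of the 51 were -0.059 in Day3 vs Day0, 0.031 in Day10 vs Day7, and -0.0086 in Day7 vs Day0. In Day7 vs Day0, 25 of the 51 were above 0 and 26 below, where the 35 members had 10 and 25. Leaving out 1 library gave 0 to 5 called in Day3 vs Day0, 2 to 10 in Day7 vs Day3, 7 to 24 in Day10 vs Day7, 1 to 19 in Day7 vs Day0, 0 to 2 in Day28 vs Day0, and 9 to 21 over 5 days, with medians of 0.053 to 0.13 in Day10 vs Day7. Except where shown by fewer peaks or libraries, the cause was not tested.

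On both Day10 and Day28 the title of replicate 2 ends in the letter p, which the titles do not explain. This label was not taken to pair the libraries of Day10 and Day28. The deviations of same-labelled libraries correlated at -0.67 across peaks. With 2 libraries per day, this value cannot show how the libraries were paired. With the replicate block by label 0 members were called and the median was -0.08, and with the labels crossed, added after seeing the data, 1 was called. Of 369 values for 38 results on named peaks, 287 kept their call and direction, 75 lost the call, and 7 were reversed. The reversed values were -0.12 for MRPL25 and 0.090 for MRPS12 after loess in Day10 vs Day7, and, with total counts, 0.0048 for MRPS12 and 0.057 for MRPS18 in Day10 vs Day7 and -0.037 for MRP1, -0.032 for MRPS18, and -0.051 for MEF2 in Day7 vs Day0. Leaving out 1 library lost 50 of 152 calls and reversed none. There were 2 libraries per day, and whether replicate spread or depth limited these comparisons more was not tested.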
